A study of Homo sapiens with 4 samples.

Results

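The insulin-like growth factor (IGF) axis is described here by 10 genes chosen by name from the 26364 gene symbols of the deposited count table. The choice was made with earlier results of these data known. The 10 are the ligands IGF1 and IGF2, the receptors IGF1R, INSR and IGF2R, the binding proteins IGFBP2, IGFBP4 and IGFBP5, and the adaptors IRS1 and IRS2. All 10 symbols were in the table, and 8 of them, all but the ligands, passed the filter on low counts and were tested with 15599 genes in all. The cells were Ishikawa, a human endometrial adenocarcinoma line, and every library came from cells with the Y537S mutation in ESR1, the gene for estrogen receptor alpha. Each mutant line is 1 clone, and no cells with the unmutated receptor were analysed here.

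The vehicle group received 0.1% DMSO and the estradiol (E2) group 10 nM E2, in each case for 8 h after at least 5 days in hormone-depleted medium. Each group had 2 libraries, 1 from each clone. The count columns carry a clone tag, A4 or B212, in place of the clone numbers of the labels, so the libraries are named by tag and treatment. Totals ran from 71575816 to 85222856 counts per library, and a floor of 3 counts corresponded to 0.0352 to 0.0410 CPM, the count scaled to library size with TMM factors. Each tag thus had 1 library per treatment, and nothing in the labels says how the cultures behind the libraries relate. The p-values therefore measure only the spread between these 4 libraries, which the tests partly pool over genes.

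In the uterus, stromal cells secrete IGF1 in response to estrogen, and the ligand acts on the neighbouring epithelium. IGF1 and IGF2 bind IGF1R, a receptor tyrosine kinase that also forms hybrids with INSR, the insulin receptor, and the active receptors phosphorylate IRS1 and IRS2, which recruit phosphoinositide 3-kinase. IGF2R, the mannose 6-phosphate receptor, takes up IGF2 for degradation, and the IGFBP proteins hold the ligands in the extracellular fluid.

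The ligands were at or near the floor in all 4 libraries. IGF1 had 3 counts in A4 DMSO, 0 in A4 E2, 2 in B212 DMSO and 2 in B212 E2. IGF2, the fetal growth factor, had 4, 7, 2 and 4 counts in the same order. The highest level of IGF1 was 0.0410 CPM and that of IGF2 was 0.0853 CPM, so neither could be compared between groups at this depth. H19, the noncoding RNA beside IGF2 in the imprinted cluster, was as low, with 0 to 3 counts. INS-IGF2, a readthrough gene that shares exons with IGF2, was listed at 0 in every library, and how reads in shared exons were assigned is not given in the sources used here, which limits what the IGF2 counts can show.

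The receptors were all well above the floor and were higher in both B212 libraries than in both A4 libraries. IGF1R stood at 15.7 CPM (A4 DMSO), 15.5 CPM (A4 E2), 33.03 CPM (B212 DMSO) and 34.3 CPM (B212 E2). INSR stood at 27.7, 23.7, 49.9 and 43.4 CPM in the same order. IGF2R stood at 172.5, 150.7, 263.2 and 236.6 CPM. For each receptor the lowest B212 library exceeded the highest A4 library. With the tags apart in this way, the DMSO and E2 libraries must overlap, whatever E2 does.

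The binding proteins went different ways. IGFBP2, a secreted carrier that favours IGF2, stood at 53.0 CPM (A4 DMSO), 50.2 CPM (A4 E2), 86.3 CPM (B212 DMSO) and 76.5 CPM (B212 E2). IGFBP5, a carrier that also binds extracellular matrix, stood at 148.9, 108.9, 189.4 and 182.9 CPM. Both were higher in B212. IGFBP4, an inhibitory carrier that is cleaved by the protease PAPPA, was scarce and lower in B212, with 54 counts (A4 DMSO), 57 (A4 E2), 19 (B212 DMSO) and 9 (B212 E2), or 0.737, 0.695, 0.223 and 0.123 CPM.

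The adaptors were lower in B212, opposite to the receptors that they serve. IRS1 stood at 18.2 CPM (A4 DMSO), 17.4 CPM (A4 E2), 13.8 CPM (B212 DMSO) and 13.2 CPM (B212 E2). IRS2 stood at 7.02, 5.63, 4.04 and 3.997 CPM. The A4 and B212 libraries did not overlap for either adaptor.

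**Figure D1:**
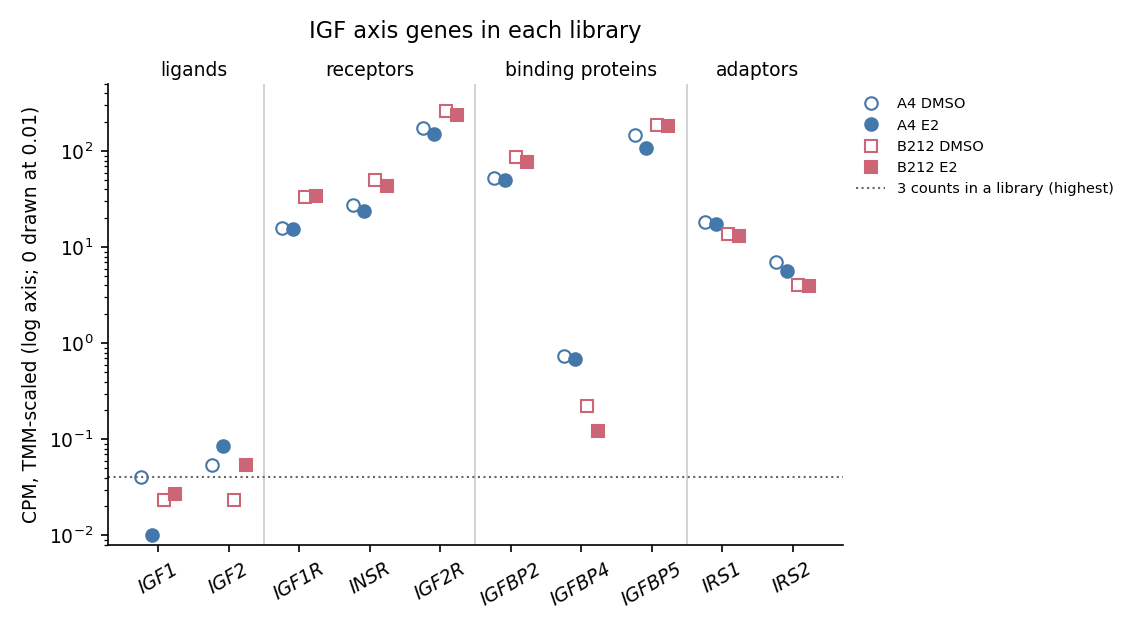
Level of each IGF axis gene in each of the 4 libraries, in CPM on a log axis, with A4 as circles and B212 as squares, DMSO open and E2 filled. IGF1 and IGF2 sit around the dotted line of 3 counts, the receptors, IGFBP2 and IGFBP5 are higher in the squares, and IGFBP4, IRS1 and IRS2 are lower in them; 1 value of 0 (IGF1 in A4 E2) is drawn at 0.01.

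Levels were compared between genes per kilobase of transcript, with the length of the longest coding GENCODE 29 transcript of each gene. The mean over the 4 libraries was 46.2 ± 12.3 CPM per kb (SD, n = 4) for IGFBP2, 25.4 ± 5.95 for IGFBP5 and 14.7 ± 3.77 for IGF2R. INSR followed with 4.04 ± 1.40, IGF1R with 2.01 ± 0.853 and IRS1 with 1.62 ± 0.259 CPM per kb. IRS2 had 0.636 ± 0.178 and IGFBP4 had 0.202 ± 0.144 CPM per kb. In this order, the ranges of IGFBP5 and IGF2R overlapped, as did those of INSR and IGF1R and those of IGF1R and IRS1, while the other neighbours were apart in every library. Among 14584 tested genes with a known length, IGFBP2 lay at the 89.5th percentile, IGF1R at the 31.6th and IGFBP4 at the 10.7th.

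Ratios of 2 genes within a library do not depend on how libraries are scaled. INSR exceeded IGF1R per length in every library, by 2.41 (95% counting interval 2.24 to 2.59) in A4 DMSO, 2.09 (1.94 to 2.24) in A4 E2, 2.07 (1.97 to 2.17) in B212 DMSO and 1.73 (1.64 to 1.82) in B212 E2. The ratio was lower in the E2 library of each tag, and both B212 values were below both A4 values, although the intervals of A4 E2 and B212 DMSO overlapped. IRS1 exceeded IRS2 per length by 2.18 and 2.60 in A4 and by 2.87 and 2.78 in B212, in the order DMSO and E2. IGF2R exceeded IGF1R by 9.57 and 8.46 in A4 and by 6.94 and 6.01 in B212. These intervals were exact binomial ones and cover counting error only.

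The comparison between the tags asked how far the axis differed between these clones of the same mutation. It used edgeR's quasi-likelihood test with treatment as a covariate, and a gene was called at a Benjamini-Hochberg adjusted p under 0.05 over all 15599 genes. Of the 8 genes tested, 5 were called higher in B212 (IGF1R, INSR, IGF2R, IGFBP2 and IGFBP5) and 3 lower (IGFBP4, IRS1 and IRS2). The tags differed widely, and 51.0% of all tested genes were called, 25.2% higher and 25.8% lower. Scaling by library size alone turned the counts over all genes from 3927 higher and 4023 lower to 4761 higher and 3176 lower, and the 8 axis genes kept their calls and directions. After removal of a smooth length and GC trend from each library, 8 of 8 were called in the same directions, against 57.1% of all genes, 23.6% higher and 33.5% lower. The CPM values of the tags did not overlap for 8 of the 8 genes, against 67.5% of all tested genes. The median absolute log2 fold change was 0.652 over the 8 genes and 0.277 over all tested genes. Because the axis genes were chosen with earlier results of these data known, these contrasts with all genes are descriptions only.

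IGF1R averaged 15.6 ± 0.131 CPM in A4 and 33.7 ± 0.896 CPM in B212 (SD, n = 2 each). The 2 libraries of a tag are its DMSO and its E2 library, so this SD is not a spread between replicates of 1 condition. It differed most among the receptors, with a log2 fold change (B212 minus A4) of 1.11 ± 0.084 (SE) and an adjusted p of 1.15e-09 by edgeR, or 2.16-fold. INSR was higher by 0.86 ± 0.079 on the log2 scale (adjusted p = 1.90e-08 by edgeR) and IGF2R by 0.63 ± 0.069 (adjusted p = 2.66e-07). IGFBP2 was higher by 0.66 ± 0.073 and IGFBP5 by 0.55 ± 0.082. The standard errors between the tags rest on these 4 libraries and on spread pooled over genes, so they may not bound the differences. For IGFBP5 the 95% interval ran from 0.38 to 0.72, and its differences within each treatment, given below, both lay outside it. Of all differences in the axis the one of IGFBP4 was the largest and the least precise, at -2.04 ± 0.36 (95% interval -2.79 to -1.29), or 4.11-fold higher in A4. IRS2 differed by -0.65 ± 0.13 and IRS1 by -0.40 ± 0.091, with adjusted p-values of 3.01e-04 and 0.00108 by edgeR. IGF1R and IGFBP4 alone of the 8 reached an absolute log2 fold change of 1 with a call, as did 11.0% of all tested genes. ESR1 differed by -0.099 ± 0.070 between the tags and was not called (adjusted p = 0.252 by edgeR).

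The difference between the tags was also taken within each treatment. IGFBP5 was higher in B212 by 0.35 on the log2 scale among the DMSO libraries (95% counting interval 0.31 to 0.38) and by 0.75 among the E2 libraries (0.71 to 0.79). IGF1R was higher by 1.07 and 1.14, INSR by 0.85 and 0.87, and IGF2R by 0.61 and 0.65. IGFBP2 was higher by 0.70 and 0.61, a gap whose counting interval, -0.15 to -0.039, also excluded 0. The lower genes were at -0.80 and -0.49 (IRS2), -0.40 and -0.40 (IRS1), and -1.73 and -2.50 (IGFBP4). The gap of IGFBP4, -0.77, was the largest of the 8 and had a counting interval from -1.65 to 0.10. Whether such a gap exceeds the spread between cultures was not tested, since each combination of tag and treatment had 1 library.

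**Figure D2:**
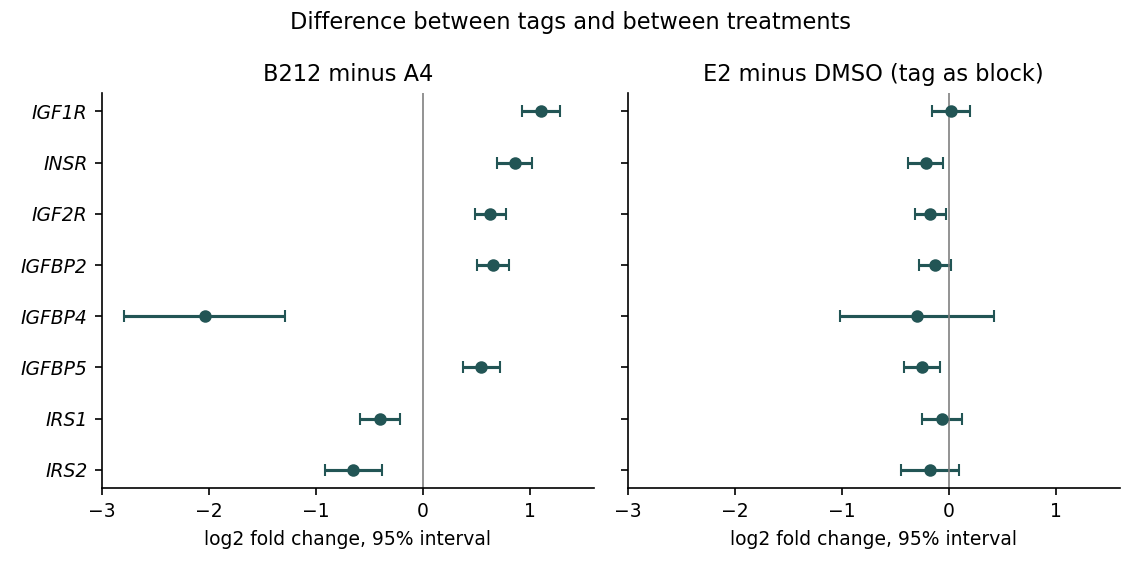
Log2 fold change of the 8 tested IGF axis genes with 95% intervals from edgeR's quasi-likelihood fit, B212 minus A4 on the left and E2 minus DMSO with the tag as a block on the right, on the same scale. All 8 intervals exclude 0 on the left, where IGF1R lies at 1.11 and IGFBP4 at -2.04, and all points on the right lie between -0.30 and 0.021. The intervals of both panels rest on 4 libraries and on spread pooled over genes, so they may not bound the differences.

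Position in the genome was looked at with the RefSeq gene order. IGFBP2 and IGFBP5 are next to each other on chromosome 2 and were the only neighbouring pair among the 8. Among the 10 tested genes nearest to IGF1R, 5 on each side, the median log2 fold change between the tags was 0.0081, against 1.11 for IGF1R itself. It was 0.016 around INSR, -0.35 around IGF2R and 0.29 around IGFBP4, against 0.86, 0.63 and -2.04 for these genes. Around IRS1 it was -0.12, around IRS2 0.024, around IGFBP2 0.090 and around IGFBP5 -0.022. Single neighbours ranged widely around these medians, from -1.60 to 0.89 around IGF1R, from -0.59 to 1.49 around IGF2R and from -2.48 to 0.91 around IRS1, so the medians describe these stretches only.

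The promoters of INSR, IGF2R and IRS1 are shown as examples of receptors that were higher and an adaptor that was lower in B212, and that of IGFBP4 because it differed most. Each line gives the 150 bases before the RefSeq start site (assembly GRCh38.p14), 5′ to 3′ on the strand of the gene. Capitals mark GC boxes (GGGCGG on either strand, matches may overlap) and TATA boxes (TATAAA on either strand).
INSR: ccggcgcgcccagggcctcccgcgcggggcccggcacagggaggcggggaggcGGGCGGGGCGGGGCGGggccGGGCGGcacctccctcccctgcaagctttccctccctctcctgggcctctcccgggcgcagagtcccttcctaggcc
IGF2R: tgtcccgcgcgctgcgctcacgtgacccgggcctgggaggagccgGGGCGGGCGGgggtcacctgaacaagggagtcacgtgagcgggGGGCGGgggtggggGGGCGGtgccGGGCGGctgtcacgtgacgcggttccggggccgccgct
IRS1: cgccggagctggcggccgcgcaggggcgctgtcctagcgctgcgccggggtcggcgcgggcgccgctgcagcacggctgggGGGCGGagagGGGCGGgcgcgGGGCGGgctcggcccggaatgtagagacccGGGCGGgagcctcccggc
IGFBP4: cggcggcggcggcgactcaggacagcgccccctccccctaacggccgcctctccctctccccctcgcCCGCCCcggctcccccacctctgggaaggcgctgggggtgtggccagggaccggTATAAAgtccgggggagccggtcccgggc
These stretches lie at chr19:7294415-7294564, minus strand (INSR), chr6:159968932-159969081, plus strand (IGF2R), chr2:226799821-226799970, minus strand (IRS1) and chr17:40443300-40443449, plus strand (IGFBP4).

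INSR had 4 GC boxes in its stretch, IGF2R had 5 and IRS1 had 4. IGF1R and IGFBP5, which were also higher in B212, had 0 GC boxes in the same stretch, and IRS2, which was lower, had 2. IGFBP4 had 1 GC box and a TATA box that begins 29 bases before the start. RefSeq promoters were found for 9 of the 10 genes, 12 promoters in all. In the 250 bases before the start, 8 of the 12 held a GC box, 1 held a TATA box and 0 held the full estrogen response element (GGTCA and TGACC with 3 bases of any kind between them). The shares among 35116 RefSeq promoters were 42.6%, 10.7% and 0.0399%. The single arm GGTCA of that element, on either strand and inside or outside a full element, was in 3 of the 12, those of IGF1, IGF2R and IGFBP2, and in 32.6% of all promoters. Such matches describe the letters only.

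The comparison of E2 with DMSO asked whether the ligand of the mutant receptor moved the axis. With no block for the tag, edgeR's quasi-likelihood test called 0 of the 8 genes, 0 of them at an unadjusted p under 0.05, and DESeq2 also called 0. The share called among all tested genes was 0%. The spread within each treatment then holds the difference between the tags, and the 95% interval of IGF1R ran from -1.44 to 1.502 on the log2 scale. Blocking on the tag raised the share of all genes called by edgeR to 9.56%, 6.13% higher and 3.44% lower. Of the 8 genes, 0 were called and 3 had an unadjusted p under 0.05, as did 3953 of the 15599 genes tested. PGR, the progesterone receptor gene and a classical estrogen target, stood at 51.6 (A4 DMSO), 72.1 (A4 E2), 5.62 (B212 DMSO) and 15.6 CPM (B212 E2), and was called higher with E2 in that fit (log2 fold change 0.90 ± 0.14, adjusted p = 8.55e-04 by edgeR). ESR1 was called lower with E2 in the same fit (log2 fold change -0.25, adjusted p = 0.0330 by edgeR). It was not called by DESeq2 with the block or with the length and GC trend removed. Of the 8 axis genes, limma-voom and DESeq2 with the block called 0 as well, although DESeq2 gave an adjusted p for 5 of the 8.

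With the block, the intervals were narrower for 7 genes than for IGFBP4. They rest on 2 pairs of libraries and on spread pooled over genes, so they may not bound the change. For IGFBP5 the changes within A4 (-0.45) and within B212 (-0.050) both lay outside its interval given below. IGF1R had a log2 fold change of 0.021 with a 95% interval from -0.15 to 0.19, and IRS1 one of -0.063 with an interval from -0.25 to 0.13. IRS2 was at -0.18 (-0.44 to 0.092) and IGFBP2 at -0.13 (-0.28 to 0.025). IGF2R was at -0.17 (-0.32 to -0.030), INSR at -0.21 (-0.38 to -0.050) and IGFBP5 at -0.25 (-0.42 to -0.079). Those 3 had unadjusted p-values of 0.0206, 0.0130 and 0.00642 and adjusted p-values of 0.118, 0.0896 and 0.0597 by edgeR, and none passed the threshold. IGFBP4, at -0.30 (-1.02 to 0.42), had the widest interval, because of its few counts. The median over the 8 genes was -0.175, against -0.0081 over all genes.

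Transcript length and GC content both moved with the E2 fold changes. The 8 genes had a median transcript length of 8546 bases, genes called lower with E2 one of 5059, genes called higher one of 2124 and genes not called one of 3317. Median GC content was 51.8% for the 8 genes, 56.2% for genes called lower, 43.1% for genes called higher and 49% for genes not called. With a smooth trend on length and GC content removed from each library, the median of the 8 became -0.096. IGF1R moved up to 0.14, IGFBP5 to -0.13, INSR to -0.11, IRS1 to 0.063 and IRS2 to 0.0070. IGF2R moved up to -0.084 and IGFBP4 to -0.24. IGFBP2 alone of the 8 moved down, from -0.13 (95% interval -0.28 to 0.025) to -0.17 (-0.29 to -0.041). Of the 8, 0 were called then by edgeR, with 1, IGFBP2, at an unadjusted p under 0.05. Of all genes 4.62% were called, 2.96% higher and 1.67% lower. With library sizes alone as the scaling and the block, IGFBP5 was called lower (log2 fold change -0.27, adjusted p = 0.0223 by edgeR).

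The E2 and DMSO libraries did not overlap for 0 of the 8 genes and for 25.0% of all tested genes. For the 8 genes this outcome was fixed in advance, because a gene whose tags do not overlap must have treatments that overlap. The count of 0 therefore says nothing about E2. Within each tag, 7 of the 8 genes had a lower CPM in the E2 library of both tags, as did 36.7% of all tested genes. IGF1R was the exception, at -0.017 in A4 and 0.054 in B212, and both 95% counting intervals included 0. IGFBP5 fell by 0.45 on the log2 scale in A4 (counting interval -0.49 to -0.41) and by 0.050 in B212 (-0.084 to -0.017). The gap between those changes, 0.40, had a counting interval from 0.37 to 0.44. IRS2 was at -0.32 in A4 and -0.016 in B212, a gap of 0.30 with an interval from 0.10 to 0.50. INSR, at -0.23 and -0.20, and IGF2R, at -0.19 and -0.15, had much the same ratio in each tag. With 1 library per treatment and tag these gaps have no replicate check.

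**Figure D3:**
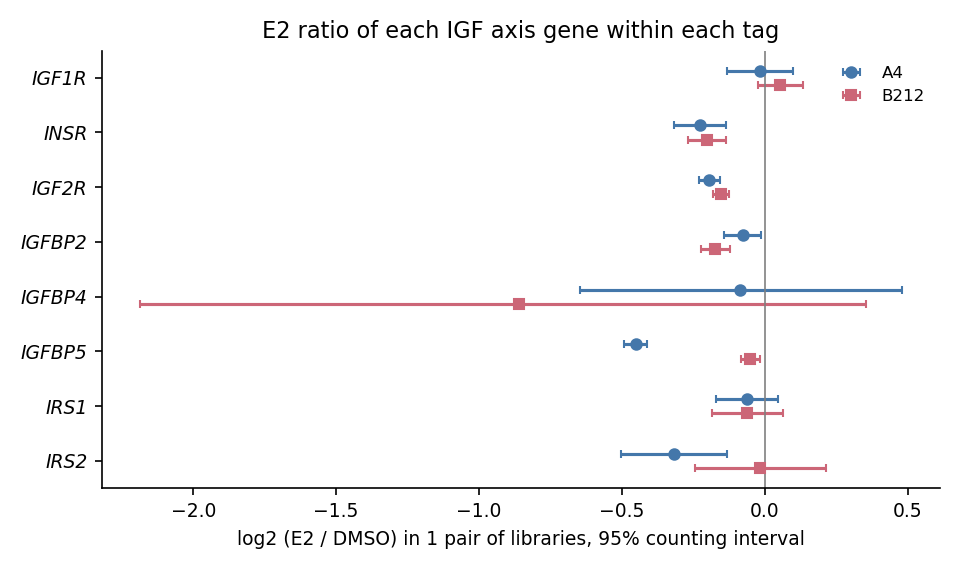
Log2 ratio of the E2 library to the DMSO library within A4 (circles) and within B212 (squares) for the 8 tested IGF axis genes, with 95% intervals for counting error only. IGFBP5 is the gene whose tags lie farthest apart relative to the intervals, at -0.45 and -0.050, and IGF1R is the gene whose points lie on either side of 0.

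The tag accounted for most of the variance of the axis. Of the variance of log2 CPM over the 4 libraries, the tag took 99.9% for IGF1R, 97.6% for IRS1, 96.0% for IGFBP2 and 94.2% for INSR. It took 93.2% for IGFBP4, 92.8% for IGF2R and 89.2% for IRS2. IGFBP5 had the smallest tag share, 74.4%, with 15.6% for treatment and 10.0% for their interaction. The tag share summed over all tested genes was 84.1%.

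The rest of the pathway was followed in 58 other genes in 4 lists, of which 51 were tested. Between the tags, 15 of the 51 were called higher in B212 and 14 lower, or 56.9%, close to the 51.0% of all tested genes. For E2, edgeR with the block called 4 of the 51, all lower, or 7.84% against 9.56% of all genes (3.44% lower), and 0 with no block (0 at an unadjusted p under 0.05, 0 by DESeq2).

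IGFBP3, the main IGF carrier of blood, was lower in B212 and, with the tag as a block, lower with E2. Its mean level over the 4 libraries was 85.0 CPM per kb. Its CPM values were 334.7 (A4 DMSO), 271.2 (A4 E2), 132.8 (B212 DMSO) and 81.4 (B212 E2). The log2 difference, B212 minus A4, was -1.53 ± 0.084 (SE; adjusted p = 7.16e-12 by edgeR). With E2 it fell by 0.50 ± 0.083 on the log2 scale with the tag as a block (adjusted p = 0.00145 by edgeR), by 0.30 in A4 and by 0.71 in B212. It was called in all 6 fits with the block. In the same edgeR fit with the block, COL1A1 was lower with E2 at -0.39 (adjusted p = 0.00394 by edgeR), the 1 called of 6 tested stromal markers. Of 7 epithelial markers, KRT18 and PAX8 were called lower. Of 3 tested leukocyte and endothelial markers, VWF was called lower. The other markers of these lists were not called, and 3.44% of all genes were called lower. With the length and GC trend removed, KRT18 alone kept its call. The part of these markers in the result was not tested. Per length, IGFBP3 exceeded IGFBP5 by 5.79 (A4 DMSO) and 6.42 (A4 E2), and by 1.81 (B212 DMSO) and 1.15 (B212 E2).

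The other 6 tested genes of the list of binding proteins, proteases and stanniocalcins were also called between the tags. Over all tested genes, 51.0% were called, 25.2% higher and 25.8% lower. STC1, a stanniocalcin, had 177 (A4 DMSO), 150 (A4 E2), 6 (B212 DMSO) and 1 (B212 E2) counts. STC2, whose product inhibits PAPPA, had a log2 fold change of -0.96 ± 0.076. HTRA1, a serine protease that cleaves IGFBP5, was higher by 1.28 ± 0.095, and IGFBP7 by 1.40 ± 0.20. IGFBP6 was lower and IGFALS, the acid-labile subunit, higher, each with a call. The call of IGFALS (adjusted p = 0.0346 by edgeR) rests on few counts. It had 8 (A4 DMSO), 4 (A4 E2), 21 (B212 DMSO) and 13 (B212 E2). PAPPA itself had 3 to 5 counts, and PAPPA2 and ADAM12 were listed at 0.

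Among 13 tested adaptors and phosphatases, 4 were called higher in B212 and 3 lower, or 53.8% against 51.0% of all genes. GAB1, a docking protein, was higher by 0.76 ± 0.086 on the log2 scale, and SHC1, the adaptor that links receptors to RAS, was lower at -0.45 ± 0.070. IRS4 and INSRR had fewer than 10 counts in every library. Among the 28 genes of phosphoinositide 3-kinase, AKT, mTOR and FOXO, 7 were called higher in B212 and 6 lower, or 46.4% against the same 51.0%. FOXO3, a transcription factor restrained by AKT, was higher by 1.18 ± 0.085, and the phosphatases INPPL1 and PHLPP1 by 0.69 ± 0.083 and 0.59 ± 0.081. EIF4EBP1, the translation repressor that mTOR inactivates, was lower at -0.93 ± 0.070, MTOR at -0.54 ± 0.070 and PIK3R1, a regulatory subunit of the kinase, at -0.43 ± 0.074. With E2 and the tag as a block, SHC1 fell by 0.23, PIK3R2 by 0.24 and PDPK1 by 0.26 on the log2 scale, with adjusted p-values of 0.0448, 0.0365 and 0.0379 by edgeR. None of these 3 was called by DESeq2 with the block or with the length and GC trend removed. Of the 3 genes of the IGF2 transcript list that were tested, IGF2BP3 was called higher and IGF2BP2 lower in B212.

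**Figure D4:**
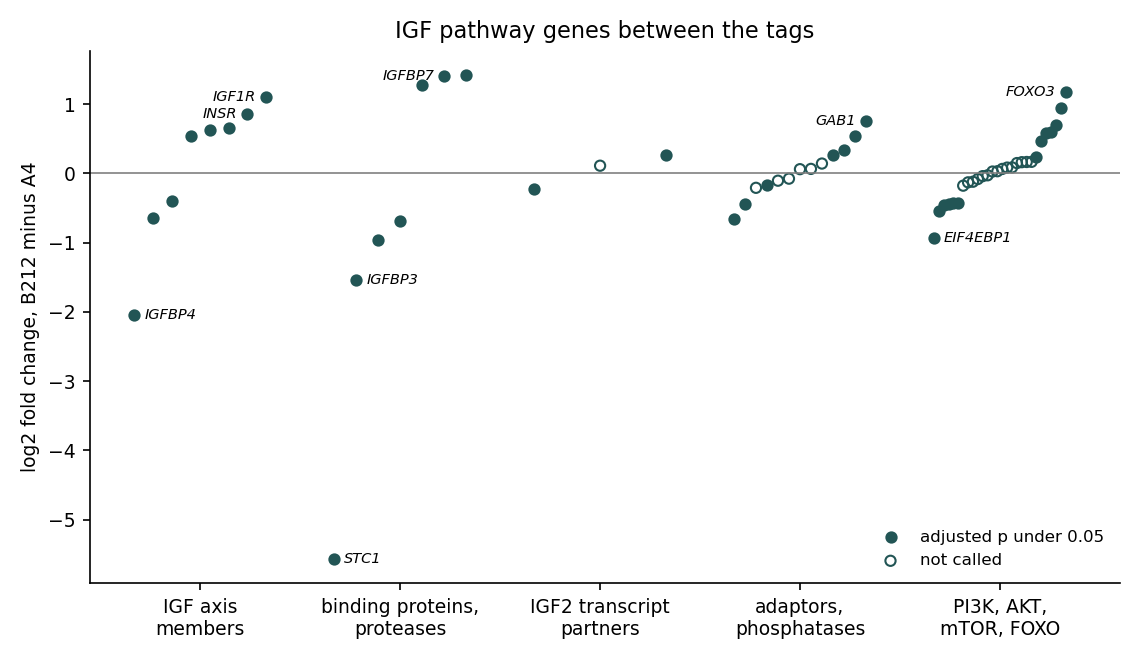
Log2 fold change of B212 minus A4 for the 8 tested IGF axis genes and the 51 other tested pathway genes, by list, each point a gene, filled where the edgeR adjusted p was under 0.05. STC1 lies lowest at -5.57, a fitted value that rests on 6 and 1 counts in B212, IGFBP4 is the lowest of the axis genes at -2.04, and 15 of the 28 PI3K, AKT, mTOR and FOXO genes are open circles.

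Over the 4 libraries, the pathway gene with the pattern nearest to that of IGF1R was FOXO3, at a Euclidean distance of 0.167 between centred log2 CPM values. The nearest to INSR was GAB1 (0.140) and the nearest to IGFBP2 was FOXO4 (0.0776), each among 51 genes. With 4 libraries and 1 large difference between tags, many genes have such a pattern, so this is a description only.

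Markers of cell types were checked in the same libraries. All 7 epithelial markers were present, with summed levels of 2343 (A4 DMSO), 2204 (A4 E2), 2956 (B212 DMSO) and 2691 CPM (B212 E2). The 9 stromal markers summed to 135.1, 98.6, 47.7 and 39.6 CPM in the same order, nearly all of it COL1A1, a collagen gene, at 127.8, 92.4, 42.4 and 34.5 CPM. Of the 9, DCN had at most 1 count, LUM at most 5 and PDGFRB at most 13. The others had more, with 76 to 210 counts for HAND2 and 87 to 290 for THY1. COL1A2 had 22 to 84 counts, COL3A1 14 to 83 and PDGFRA 21 to 47. Between the tags, 5 of the 7 epithelial markers were called higher in B212. Of the 6 tested stromal markers, 4 (COL1A1, COL1A2, COL3A1 and HAND2) were called lower and 1, THY1, was called higher, at 1.36 on the log2 scale. Over all tested genes 25.2% were called higher and 25.8% lower. COL1A1 thus moved between the tags in the same direction as IGFBP3, IGFBP4, IRS1 and IRS2, and the epithelial sum in the same direction as the receptors, IGFBP2 and IGFBP5. Their part in the results was not tested, and in bulk libraries fewer cells of a type and less RNA per cell cannot be told apart. Of the 6 leukocyte and endothelial markers, CD3E and PECAM1 were at 0, and the list summed to 4.23 to 6.89 CPM. VWF had 167 to 372 counts and was called higher in B212 (log2 fold change 0.58, adjusted p = 0.00323 by edgeR), and CD68 had 92 to 176 counts and was not called.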

How the data were processed

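RNA was measured by stranded poly(A) sequencing in 4 libraries. The deposited values are raw counts per gene symbol as the authors made them, with no scaling. Per the submitters' processing notes, the build was hg19 and the tools included HISAT2, SAMtools and featureCounts, with no versions; the strand setting is not given in the sources used here. Counts of overlapping and antisense genes are therefore uncertain. Another 4 columns of values matched no sample and were not used.

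Columns were placed by treatment name. The tags A4 and B212 match no label, but the labels pair a DMSO with an E2 library of each clone. Same-tag libraries deviated together (Pearson r = 0.871 across genes), so the tag also served as a block. edgeR 4.0.16 (filterByExpr, TMM, quasi-likelihood test) on R 4.3.3 was used; each standard error is the log2 fold change divided by the root of its F value, and log2 CPM had a prior count of 2. Alternatives used DESeq2 1.42.0, limma 3.58.1, other scalings and filters, libraries left out, and a trend on length and GC (mgcv 1.9.3; GENCODE 29 lengths for 93.5% of tested genes). Figures used matplotlib 3.10.9.

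On counts simulated for 15507 genes with the measured tag differences, the E2 test recovered 0 of 200 genes changed by 1 on the log2 scale without the block and 200 with it, with 12 false calls. The axis genes moved less than that with E2 and the block, and recovery of changes of their size was not tested. The axis genes and the lists were chosen with earlier results of these data known. Of other pathway genes, those called for E2 and, between tags, the 3 with the smallest p in each direction and a mean of at least 50 counts were named, among binding and adaptor genes together and among PI3K, AKT, mTOR and FOXO genes, with ESR1, PGR and the genes of like pattern; IGFBP6, IGFALS, IGF2BP2, IGF2BP3 and genes named for their low counts were added after their values were seen.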

Additional observations from a re-analysis of the deposited data

Results flagged for a closer look

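IGF1R was the tested gene of the axis whose E2 libraries moved in opposite directions in the 2 tags. Its log2 ratio of E2 to DMSO was -0.017 in A4 and 0.054 in B212, and both 95% counting intervals, -0.13 to 0.099 and -0.024 to 0.13, included 0. No test of the difference was possible with 1 library of each kind.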

How the results depend on the processing

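Alternatives were planned, except the length and GC trend in the tag comparison, which was chosen after seeing the data. For E2, the count of 0 axis genes held in every setting run except library size only with the replicate block, where 1 (IGFBP5) was called. The count of all genes became 1492 with the replicate block, 562 with DESeq2 and the block, 1138 with limma-voom and the block, 717 with DESeq2 size factors and the block, 1686 (911 higher, 775 lower) with library size only and the block, 721 with the trend removed and the block, 415 at an adjusted p under 0.01 with the block, and 1 with DESeq2 and no block. Other pathway genes called became 4 with the replicate block, 3 with limma-voom, 7 with library size only, and 1 each with DESeq2, DESeq2 size factors, the trend removed and the stricter threshold, all with the block. Under TMM scaling the block changed no call among the axis genes, while under library size only it added IGFBP5. It takes the tag difference out of the residual spread; the other causes were not tested.

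With the trend removed and the block, IRS1 (0.063) and IRS2 (0.0070) changed sign for E2. Leaving out 1 library with no block unbalances the tags: log2 fold changes ran from -0.65 to 0.66 (IGF1R), -0.53 to 0.16 (IGF2R), -0.71 to 0.27 (INSR), -0.29 to 0.15 (IRS1), -0.54 to 0.25 (IRS2), -0.47 to 0.25 (IGFBP2), -1.97 to 0.88 (IGFBP4), -0.64 to 0.095 (IGFBP5), -1.54 to 0.41 (IGFBP3) and -0.47 to 0.033 (SHC1), and 0 genes were called.

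Between the tags, all 8 axis genes were called in the same direction in each fit that tested them; IGFBP4 fell under a filter of 10 counts in every library, leaving 7. A log2 fold change of at least 1 left 2 axis genes, 6 other pathway genes and 1723 of all genes, and no treatment term left 4456 of all genes. Library size only gave 4761 higher and 3176 lower, and shifted the median of all genes from 0.0042 to 0.071. With 1 library left out, values with no test ran from 0.35 to 0.75 (IGFBP5), -2.52 to -1.72 (IGFBP4) and -0.80 to -0.49 (IRS2), and moved less for the other 5. Depth limited IGF1, IGF2 and IGFBP4.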
